A study of Homo sapiens with 9 samples.

Results

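The genes described here are 89 protein-coding genes whose transcripts were lower in PLC/PRF/5 cells carrying the T348I form of the tyrosine kinase YES than in cells carrying the wild-type form, with both under dasatinib. They were chosen by a rule on the same counts: at least 5 counts per 1000000 gene reads (CPM) in each wild-type sample, and a ratio of mean T348I CPM to mean wild-type CPM of 0.6 or less in both sets of samples. The rule left out the gene families APO, ALDH, SERPIN, CYP and AKR1C, and G6PC1, BAAT, SLC30A10 and SLC39A5. Of 19780 protein-coding genes, 10189 had the level the rule asks for (eligible genes), 99 of these (0.972%) met the ratio in both sets, and 10 of the 99 were left out by symbol. A cut of 0.6 is milder than a halving: the ratio was 0.5 or less in both sets for 25 of the 89 members.

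PLC/PRF/5 is a human hepatoma line. The study measured polyadenylated RNA by stranded sequencing in 9 samples of it that stably expressed Yes WT (4 samples) or Yes T348I (5 samples). Every sample of both groups carried an introduced YES and had received 100 nM dasatinib. Every ratio below thus compares cells with 2 YES forms under the drug, and their YES1 levels differed too. No sample without dasatinib was analysed here. Titles spell the drug as dasatinib (3 WT and 3 T348I samples) or Dasa (1 WT and 2 T348I samples), here the dasatinib set and Dasa set. The labels do not say what the spelling marks, whether the lines are single clones, or whether samples came from separate cultures, so a p-value covers the spread of these 9 samples, which could be technical, and nothing wider.

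YES belongs to the Src family of membrane-bound kinases, which phosphorylate proteins at cell adhesions and growth factor receptors. Dasatinib occupies the ATP pocket of these kinases, and a bulkier residue at the gatekeeper position of that pocket, such as T348I, is known to hinder its binding. Hepatocytes are known for secreting clotting factors and lipases, breaking down amino acids, and moving sugars, vitamins and drugs across their membranes, under transcription factors such as HNF4A and CEBPA.

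Samples held 10381142 to 15799059 gene reads, so 1 read was worth 0.0633 to 0.0963 CPM. YES1 reads cannot be split here into the introduced and the cell's own gene. They stood at 378, 361, 357 and 356 CPM in the WT samples. In T348I dasatinib they stood at 606, 586 and 559, and in T348I Dasa at 905 and 969. Every T348I sample was above every WT sample, so YES form and YES1 level cannot be told apart in any T348I to WT comparison here. The mitochondrial share of gene reads was 7.38% to 9.44% in the dasatinib set and 15.2% to 17.0% in the Dasa set, so the sets stood apart in both genotypes. Of 10 hepatocyte markers, 8 had at least 1 CPM in every sample, among them APOB (2525 to 5140 CPM), FGB (973 to 1825) and HNF4A (115 to 173), while ALB stayed at 1.08 to 4.87 CPM and TTR at or below 0.366. Summed hepatocyte markers, of which APOB is the largest part, came to 5234 to 7704 CPM in WT and 4339 to 5804 in T348I samples. For 7 of the 10, TTR with its few reads included, every T348I sample was below every WT sample, where 12.9% of the eligible genes had this pattern. Among the 7 were TF, transferrin, at 635 to 690.0 CPM in WT and 291 to 423 in T348I, and AFP, alpha-fetoprotein, at 92.0 to 103 and 41.5 to 75.7. APOB, FGB and AHSG overlapped between the genotypes. In the dasatinib set APOB was higher in T348I samples, at 2681 to 3448 CPM against 2525 to 2610 in WT. The highest WT sum, 7704 CPM, was that of the WT Dasa sample, where APOB stood at 5140. None of the 16 markers of the other cell types was apart in this way in either direction, and the part of these levels in the members' values was not tested. Fibroblast markers (6 genes) summed to 3.86 to 8.64 CPM in WT and 4.87 to 9.74 in T348I samples, and endothelial markers (5 genes) to 1.43 to 3.44 and 1.83 to 3.70. The 5 blood markers summed to 927 to 1315 and 746 to 1420 CPM, nearly all of it LYZ, with PTPRC, which defines blood cells, at or below 0.142.

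Taken as a sum, the members were below their wild-type level in every T348I sample. Their summed level was 5479, 5508 and 5495 CPM in WT dasatinib and 4975 in WT Dasa, against 2926, 2984 and 3027 in T348I dasatinib and 1840 and 1866 in T348I Dasa. These are the values that selected the members and are given as a description, with no test. Each T348I sample lay under every WT sample, and the T348I Dasa samples lay lowest. In these bulk samples, fewer cells with a transcript and less of it per cell cannot be told apart.

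The ratio of T348I to WT over the members had a median of 0.555 (range 0.272 to 0.5997) in the dasatinib set and 0.370 (0.154 to 0.557) in the Dasa set. Over all eligible genes the medians were 0.958 and 0.968. A ratio of 0.5 or less was reached by 25 members in the dasatinib set and by 82 in the Dasa set, and 87 of 89 members had the lower ratio in the Dasa set, against 47.4% of eligible genes. Low ratios were also more frequent in the Dasa set over eligible genes, where 234 were at 0.5 or less, against 29 in the dasatinib set. The ratios are those the rule used, and the Dasa ratio has 1 WT sample under it. Whether a member's fold differed between the sets was not tested. For 78 members every T348I sample was below every WT sample. The background for that count, 12.9% of eligible genes, is given only for reference, since the rule used this contrast.

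**Figure D1:**
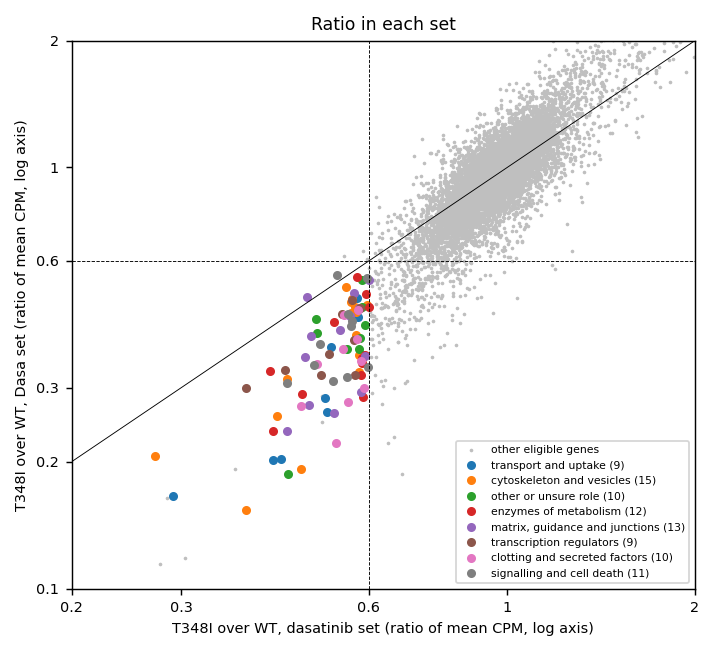
Ratio of mean T348I to mean WT CPM in the dasatinib set (horizontal, log axis) and the Dasa set (vertical, log axis) for eligible genes (grey) and the 89 members (coloured by function group). Dashed lines mark 0.6 and the solid line marks equal ratios, 87 of 89 members lie under the solid line, grey points in the lower left box are genes left out by symbol, and genes beyond the axes are not drawn.

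The sets share no sample, so genes chosen in one can be read in the other; only the demand for 5 CPM touched the WT Dasa sample in both. When the ratio was asked of the dasatinib set alone, 91 genes were chosen, and 89 of them (97.8%) were at or below 0.6 in the Dasa set, where 4.39% of eligible genes were. Their median ratio there was 0.370, from 0.154 to 0.632. These 89 are the members themselves, and the Dasa ratio rests on 1 WT sample. Both sets compare the same YES forms in the same cell line, so the read-across is a description, with no test. The pair that missed were CYB5D2 at 0.632 and ADAM11 at 0.616, both named after their values were seen, and both below 1. In the other direction the Dasa set alone chose 422 genes, of which 89 (21.1%) reached 0.6 in the dasatinib set, while 419 were below 1, with a median of 0.683.

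At the edge of the rule, by the larger of the set ratios, the members just inside were BMF (0.597), EPHA7 (0.598), NID1 (0.5996) and CHST9 (0.5997). Just outside were MAPK8IP2 (0.601), GLTPD2 (0.602), CHDH (0.603) and CXCL6 (0.604). The edge is continuous, so membership near it turns on small differences. Scaling by TMM-adjusted library sizes, which moves all values of a sample by a common factor, left 60 genes under the rule, 59 of them members.

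The members were grouped by known function by hand, after their values were seen. They comprised 15 genes of the cytoskeleton and vesicles, 13 of matrix, guidance and junctions, 12 metabolic enzymes, 11 of signalling and cell death, 10 clotting and other secreted factors, 9 of transport and uptake, 9 transcription regulators, and 10 of other or unsure role. In every group the median ratio was lower in the Dasa set.

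**Figure D2:**
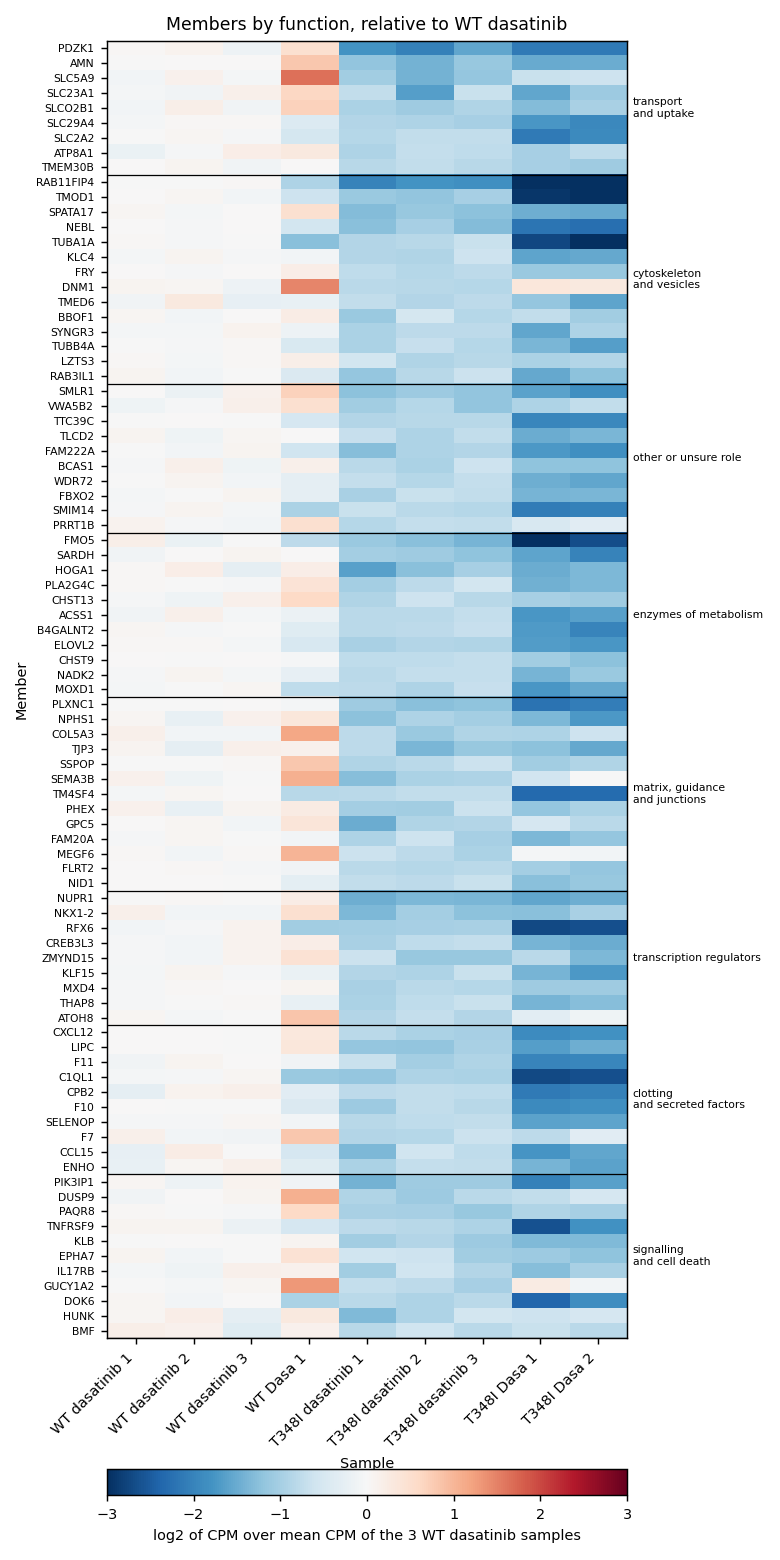
log2 of each member's CPM in each sample over its mean in the 3 WT dasatinib samples, with blue lower and red higher, on a colour scale that stops 3 log2 units from 0 on either side. Rows are 87 members by function group and columns the 9 samples; T348I columns are blue for most rows, while the WT Dasa column holds both red and blue rows.

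Short words known from liver and general transcription factors were searched in the promoters of the members, because promoter sequence is a feature the rule did not use. The RefSeq promoter table for GRCh38.p14, which spans 250 bases before to 50 after each gene's start, held 72 of the 89 members. A stretch of each of 6 is printed below, 5′ to 3′ on the gene's strand with the word in capitals: the first 5 carry 1 arm of the HNF1 palindrome, GTTAAT or its reverse complement ATTAAC, and SMLR1 carries the HNF4 word CAAAGTCCA. They are from the lipase LIPC at chr15:58431905-58431950 (plus strand, the word 66 bases before the start), the vitamin C transporter SLC23A1 at chr5:139383397-139383442 (minus strand, the word 125 bases before the start), the oxygenase FMO5 at chr1:147225499-147225544 (minus strand, the word 185 bases before the start), the membrane protein TM4SF4 at chr3:149474538-149474583 (plus strand, the word 139 bases before the start), TTC39C at chr18:24113228-24113273 (plus strand, the word 79 bases before the start) and SMLR1 at chr6:130827366-130827405 (plus strand, the word 20 bases before the start).
LIPC: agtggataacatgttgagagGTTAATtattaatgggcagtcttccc
SLC23A1: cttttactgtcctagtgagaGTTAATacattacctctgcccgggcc
FMO5: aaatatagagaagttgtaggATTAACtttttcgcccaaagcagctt
TM4SF4: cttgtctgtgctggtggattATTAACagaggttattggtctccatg
TTC39C: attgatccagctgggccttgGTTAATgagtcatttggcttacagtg
SMLR1: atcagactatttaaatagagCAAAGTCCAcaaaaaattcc
The word GTTAAT occurred on either strand in 8 of the 72 member promoters (11.1%), against 3.27% of 8464 promoters of eligible genes and 6.89% of all 27305 promoters. Starts are those of RefSeq, and for 5 of the 6 printed (not SMLR1) the window lies inside the gene as GENCODE draws it. Besides the 5 printed, it lay in the promoters of TMED6, RAB3IL1 and PRRT1B.

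The HNF4 word CAAAGTCCA was in 3 member promoters (4.17%), those of SMLR1, PDZK1 and F10, against 0.224% of eligible and 0.359% of all promoters. In the 250 bases before the start alone it was in 1. The nuclear receptor word AGGTCA, which like the other words lies within no other word searched, was in 14 (19.4%), against 9.38% and 13.9%. The forkhead word TGTTTAC was in 2 (2.78%, against 2.24% and 3.41%), and the C/EBP word TTGCGCAA in 0 (against 0.213% and 0.128%). The TEAD word GGAATG was in 6 (8.33%, against 10.3% and 14%), the AP-1 word TGACTCA, whose reverse complement is TGAGTCA, in 2 (2.78%, against 2.61% and 4.92%), and the TATA box TATAAA in 6 (8.33%, against 4.91% and 12%). The SP1 word GGGCGG was in 40 (55.6%), below the 72.6% of eligible genes and above the 44.6% of all promoters. A match is a run of letters, not a binding site, and word shares move with base composition: 20.8% of member promoters had a GC content of 50% or less, against 6.85% of eligible promoters.

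Of the factors known to read such words, 2 are given here. HNF4A stood at 169.6 ± 3.63 CPM in WT (SD, n = 4) and 136 ± 19.9 in T348I (SD, n = 5), a log2 difference of -0.25 (SE 0.0721, adjusted p = 0.0205) in the edgeR quasi-likelihood test. CEBPA, a driver of hepatocyte differentiation, stood at 33.7 ± 4.72 CPM in WT (SD, n = 4) and 20.3 ± 1.87 in T348I (SD, n = 5), a difference of -0.73 (SE 0.0637, adjusted p = 2.39e-10). Both fell in T348I samples in this test, and HNF4A was named after its values were seen. The HNF4A call was lost in 4 of 17 alternatives (adjusted p = 0.0516 to 0.075). Without the WT Dasa sample its difference was -0.12 (adjusted p = 0.0187).

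Transport and uptake held 9 members, and their median ratios were 0.514 in the dasatinib set and 0.284 in the Dasa set. PDZK1, a scaffold with PDZ domains that holds the HDL receptor and transporters at the membrane (chr1:145670852-145708148, minus strand, GRCh38), stood at 19.0, 19.8 and 16.5 CPM in WT dasatinib, 25.6 in WT Dasa, 5.30, 4.53 and 6.27 in T348I dasatinib, and 4.24 and 4.27 in T348I Dasa. AMN, which with cubilin takes up vitamin B12 bound to intrinsic factor, stood at 21.2, 21.7 and 21.7 CPM in WT dasatinib, 37.8 in WT Dasa, 9.44, 8.03 and 9.75 in T348I dasatinib, and 7.60 and 7.68 in T348I Dasa (chr14:102922656-102933596, plus strand). In both genes the lowest WT sample was well above the highest T348I sample, and the WT Dasa sample was the highest of all; the ratios were 0.291 (dasatinib) and 0.166 (Dasa) for PDZK1, and 0.421 (dasatinib) and 0.202 (Dasa) for AMN.

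SLC5A9, a sodium-coupled sugar transporter (chr1:48222685-48248644, plus strand), stood at 7.51, 8.79 and 7.65 CPM in WT dasatinib, 25.3 in WT Dasa, 3.85, 2.98 and 3.57 in T348I dasatinib, and 5.06 and 5.19 in T348I Dasa. SLC2A2, the glucose transporter GLUT2 of hepatocytes and beta cells, stood at 121, 127 and 119 CPM in WT dasatinib, 84.6 in WT Dasa, 67.5, 73.7 and 73.6 in T348I dasatinib, and 28.2 and 32.5 in T348I Dasa. The 2 sugar carriers differed between the sets: the Dasa samples of each genotype were above those of the dasatinib set for SLC5A9 and below for SLC2A2. Their ratios were 0.434 (dasatinib) and 0.203 (Dasa) for SLC5A9, and 0.587 (dasatinib) and 0.359 (Dasa) for SLC2A2. SLC23A1, a sodium-coupled vitamin C transporter, stood at 8.30, 7.93 and 9.49 CPM in WT dasatinib, 13.3 in WT Dasa, 5.11, 2.72 and 5.40 in T348I dasatinib, and 2.91 and 4.05 in T348I Dasa. SLC29A4, a transporter of monoamines at the plasma membrane, stood at 56.4, 60.2 and 60.3 CPM in WT dasatinib, 44.4 in WT Dasa, 32.0, 30.8 and 29.3 in T348I dasatinib, and 17.7 and 15.5 in T348I Dasa. T348I samples lay below all WT samples for both, with ratios of 0.514 (dasatinib) and 0.263 (Dasa) for SLC23A1, and 0.521 (dasatinib) and 0.374 (Dasa) for SLC29A4. The remaining 3 were SLCO2B1, which takes up organic anions and drugs (0.511 and 0.284), ATP8A1, a lipid flippase (0.576 and 0.440), and TMEM30B, a partner subunit of such flippases (0.574 and 0.489).

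**Figure D3:**
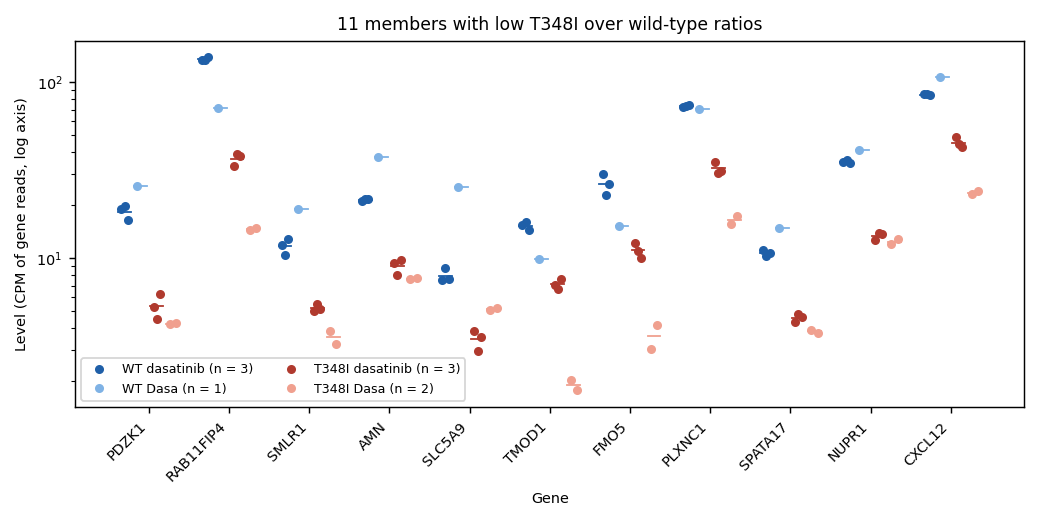
Level of 11 of the 12 members with the lowest ratio (vertical, CPM of gene reads, log axis) in each sample, with a short bar at each group's mean. For all 11 genes every T348I point (red tones) is below every WT point (blue tones).

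Among the 15 members of the cytoskeleton and vesicles were several of those with the lowest ratios, of which 3 are given here with their coordinates. RAB11FIP4, which binds RAB11 on recycling endosomes (chr17:31391624-31538217, plus strand), stood at 133, 134 and 139 CPM in WT dasatinib, 71.3 in WT Dasa, 33.5, 39.1 and 38.0 in T348I dasatinib, and 14.6 and 14.9 in T348I Dasa. Its ratios were 0.272 and 0.207, and the Dasa samples of both genotypes were the lower ones. TMOD1, which caps the slow-growing ends of actin filaments (chr9:97501180-97601748, plus strand), stood at 15.4, 16.1 and 14.4 CPM in WT dasatinib, 9.88 in WT Dasa, 7.03, 6.73 and 7.66 in T348I dasatinib, and 2.03 and 1.78 in T348I Dasa. SPATA17, a calmodulin-binding protein known from testis (chr1:217631324-217871696, plus strand), stood at 11.2, 10.3 and 10.8 CPM in WT dasatinib, 14.9 in WT Dasa, 4.33, 4.85 and 4.61 in T348I dasatinib, and 3.92 and 3.77 in T348I Dasa. Groups did not overlap for either, and the ratios were 0.467 (dasatinib) and 0.192 (Dasa) for TMOD1, and 0.428 (dasatinib) and 0.258 (Dasa) for SPATA17.

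NEBL, a nebulin relative that binds actin, stood at 176, 169.7 and 175 CPM in WT dasatinib, 118 in WT Dasa, 72.8, 87.2 and 70.9 in T348I dasatinib, and 37.9 and 36.3 in T348I Dasa. TUBA1A, an alpha tubulin whose reads may be uncertain because the tubulin genes are near-identical, stood at 58.4, 55.8 and 56.1 CPM in WT dasatinib, 23.9 in WT Dasa, 30.8, 32.1 and 35.8 in T348I dasatinib, and 8.61 and 6.97 in T348I Dasa. DNM1, the dynamin that cuts off endocytic vesicles in neurons, stood at 15.8, 15.5 and 13.5 CPM in WT dasatinib, 41.1 in WT Dasa, 8.48, 8.35 and 8.27 in T348I dasatinib, and 18.7 and 18.3 in T348I Dasa. NEBL groups were apart, whereas for TUBA1A the WT Dasa sample lay under the T348I dasatinib samples, and for DNM1 the T348I Dasa samples lay above 3 of the 4 WT samples. Their ratios within the sets were 0.444 (dasatinib) and 0.315 (Dasa) for NEBL, 0.579 (dasatinib) and 0.326 (Dasa) for TUBA1A, and 0.561 (dasatinib) and 0.451 (Dasa) for DNM1. A further 8 had ratios of 0.551 to 0.595 in the dasatinib set and 0.359 to 0.521 in the Dasa set. They were the kinesin light chain KLC4, the tubulin TUBB4A, the vesicle proteins SYNGR3 and TMED6, the RAB3 partner RAB3IL1, the scaffold LZTS3, the basal body protein BBOF1 and FRY.

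Enzymes of metabolism numbered 12. The T348I Dasa mean was above the T348I dasatinib mean for 0 of the 12, for 16 of all 89 members and for 32.15% of eligible genes. ELOVL2, which elongates polyunsaturated fatty acids, stood at 664, 664 and 631 CPM in WT dasatinib, 465 in WT Dasa, 334, 353 and 348.3 in T348I dasatinib, and 205 and 195 in T348I Dasa. Its groups did not overlap, the WT Dasa sample was the lowest WT sample, and the ratios were 0.528 and 0.430. FMO5, a flavin-containing oxygenase (chr1:147175351-147243050, minus strand), whose promoter stretch is printed above, stood at 30.0, 22.8 and 26.3 CPM in WT dasatinib, 15.3 in WT Dasa, 12.1, 11.1 and 10.1 in T348I dasatinib, and 3.04 and 4.20 in T348I Dasa. SARDH, the mitochondrial enzyme that breaks down sarcosine, stood at 6.29, 6.88 and 7.22 CPM in WT dasatinib, 6.88 in WT Dasa, 3.37, 3.24 and 2.96 in T348I dasatinib, and 2.28 and 1.71 in T348I Dasa. T348I samples were below WT samples for both, with ratios of 0.420 (dasatinib) and 0.236 (Dasa) for FMO5, and 0.469 (dasatinib) and 0.290 (Dasa) for SARDH.

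A further 8 enzymes had ratios of 0.416 to 0.5997 and 0.285 to 0.549. They were HOGA1 of hydroxyproline breakdown, the acetyl-CoA synthetase ACSS1, the mitochondrial NAD kinase NADK2, the phospholipase PLA2G4C, the glycan-modifying enzymes CHST9, CHST13 and B4GALNT2, and MOXD1, a relative of dopamine beta-hydroxylase. MOXD1 was the 1 enzyme whose groups overlapped.

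Clotting and other secreted factors numbered 10, with median ratios of 0.551 and 0.345. Factor VII and factor X start and carry forward the extrinsic clotting path, and their genes are neighbours on chromosome 13, F7 (chr13:113105788-113120681, plus strand) and F10 (chr13:113122814-113149529, plus strand), with 2133 bases between them. F7 stood at 8.58, 7.26 and 7.15 CPM in WT dasatinib, 13.4 in WT Dasa, 4.14, 4.21 and 4.87 in T348I dasatinib, and 4.43 and 6.04 in T348I Dasa. F10 stood at 44.8, 43.8 and 43.6 CPM in WT dasatinib, 32.4 in WT Dasa, 20.7, 26.6 and 24.8 in T348I dasatinib, and 11.6 and 12.3 in T348I Dasa. The neighbours had ratios of 0.575 (dasatinib) and 0.391 (Dasa) for F7, and 0.546 (dasatinib) and 0.370 (Dasa) for F10, and every WT sample was above every T348I sample for both. The WT Dasa sample was the highest WT sample for F7 and the lowest for F10.

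F11, a factor of the contact path, stood at 17.0, 19.0 and 18.3 CPM in WT dasatinib, 16.7 in WT Dasa, 11.5, 8.998 and 9.66 in T348I dasatinib, and 4.56 and 4.69 in T348I Dasa. CPB2, a carboxypeptidase that slows clot breakdown, stood at 12.2, 15.7 and 16.2 CPM in WT dasatinib, 11.6 in WT Dasa, 8.57, 8.74 and 8.62 in T348I dasatinib, and 3.35 and 3.63 in T348I Dasa. Both were lower in every T348I sample, with ratios of 0.555 (dasatinib) and 0.277 (Dasa) for F11, and 0.589 (dasatinib) and 0.2999 (Dasa) for CPB2. LIPC, the hepatic lipase that acts on HDL and remnant particles, stood at 66.6, 66.9 and 65.9 CPM in WT dasatinib, 83.5 in WT Dasa, 29.8, 29.3 and 34.0 in T348I dasatinib, and 21.2 and 24.1 in T348I Dasa. CXCL12, a chemokine that draws cells bearing CXCR4 (chr10:44370165-44386493, minus strand), stood at 85.6, 85.3 and 84.5 CPM in WT dasatinib, 107 in WT Dasa, 48.6, 44.3 and 42.9 in T348I dasatinib, and 23.2 and 24.0 in T348I Dasa. For these a single WT sample, WT Dasa, was the highest, and the T348I samples were apart, with ratios of 0.467 (dasatinib) and 0.271 (Dasa) for LIPC, and 0.532 (dasatinib) and 0.222 (Dasa) for CXCL12.

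SELENOP, the plasma carrier of selenium, stood at 114, 114 and 119.8 CPM in WT dasatinib, 109.8 in WT Dasa, 65.5, 68.0 and 68.9 in T348I dasatinib, and 37.8 and 38.4 in T348I Dasa. C1QL1, a secreted protein with a C1q domain, stood at 253, 258 and 275 CPM in WT dasatinib, 121 in WT Dasa, 117, 137 and 135 in T348I dasatinib, and 40.2 and 42.5 in T348I Dasa. SELENOP groups were apart, while for C1QL1 the WT Dasa sample lay within the range of the T348I dasatinib samples; the ratios were 0.582 (dasatinib) and 0.347 (Dasa) for SELENOP, and 0.495 (dasatinib) and 0.342 (Dasa) for C1QL1. The chemokine CCL15 (0.548 and 0.446) and ENHO, which encodes the peptide adropin (0.576 and 0.460), complete the group.

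Matrix, guidance and junction genes numbered 13. PLXNC1, a semaphorin receptor (chr12:94148723-94307675, plus strand), stood at 72.2, 73.0 and 74.3 CPM in WT dasatinib, 70.1 in WT Dasa, 35.2, 30.6 and 31.5 in T348I dasatinib, and 15.8 and 17.4 in T348I Dasa. TM4SF4, a tetraspan membrane protein of liver and intestine, stood at 472, 512 and 502 CPM in WT dasatinib, 278 in WT Dasa, 284, 298 and 298 in T348I dasatinib, and 97.9 and 100.5 in T348I Dasa. NID1, a basement membrane protein that links laminin and collagen IV, stood at 347, 347 and 342 CPM in WT dasatinib, 280.0 in WT Dasa, 206, 199 and 216 in T348I dasatinib, and 145 and 157 in T348I Dasa. PLXNC1 and NID1 groups were apart, and for TM4SF4 the WT Dasa sample lay under all 3 T348I dasatinib samples. The ratios were 0.443 (dasatinib) and 0.237 (Dasa) for PLXNC1, 0.592 (dasatinib) and 0.357 (Dasa) for TM4SF4, and 0.5996 (dasatinib) and 0.540 (Dasa) for NID1. Per kilobase of exon, the highest WT levels of all members were those of TM4SF4 (206 CPM per kb), C1QL1 (175) and ELOVL2 (152).

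The other 10 had ratios of 0.474 to 0.582 and 0.261 to 0.503. They were the nephrin gene NPHS1 and the tight junction protein TJP3, the collagen COL5A3, the proteoglycan GPC5, the guidance proteins SEMA3B and FLRT2, the endopeptidase PHEX and the secreted pseudokinase FAM20A, both known from mineralized tissue, MEGF6, and SSPOP, a gene whose current symbol marks it as a pseudogene. GPC5 was 1 of the 2 members whose ratio was not lower in the Dasa set (0.478 and 0.494), and HUNK, a kinase, was the other (0.533 and 0.557).

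Transcription regulators numbered 9. NUPR1, a small chromatin protein induced by stress (chr16:28532708-28539174, minus strand), stood at 35.2, 36.0 and 34.8 CPM in WT dasatinib, 41.4 in WT Dasa, 12.7, 13.9 and 13.8 in T348I dasatinib, and 12.03 and 12.8 in T348I Dasa. CREB3L3, a liver factor that is released from the endoplasmic reticulum and acts on lipid genes, stood at 33.9, 32.8 and 37.5 CPM in WT dasatinib, 39.7 in WT Dasa, 17.8, 20.5 and 21.1 in T348I dasatinib, and 13.1 and 12.4 in T348I Dasa. KLF15, which acts on genes of gluconeogenesis and amino acid breakdown, stood at 9.44, 10.5 and 9.70 CPM in WT dasatinib, 8.64 in WT Dasa, 5.39, 5.18 and 6.27 in T348I dasatinib, and 3.73 and 2.99 in T348I Dasa. All 3 were below WT in every T348I sample, with ratios of 0.381 (dasatinib) and 0.2996 (Dasa) for NUPR1, 0.570 (dasatinib) and 0.322 (Dasa) for CREB3L3, and 0.568 (dasatinib) and 0.389 (Dasa) for KLF15. RFX6, known for its part in pancreatic islet development, stood at 62.5, 64.8 and 72.0 CPM in WT dasatinib, 32.4 in WT Dasa, 32.6, 33.5 and 33.9 in T348I dasatinib, and 10.1 and 10.7 in T348I Dasa. Its WT Dasa sample lay just under the T348I dasatinib samples, and the ratios were 0.502 and 0.321. The other 5 were NKX1-2, ATOH8, the MYC-network repressor MXD4, ZMYND15 and THAP8, at 0.439 to 0.581 and 0.330 to 0.484.

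Signalling and cell death held 11 members. KLB, beta-klotho, the co-receptor with which hepatocytes sense FGF19 and FGF21, stood at 45.8, 46.5 and 45.8 CPM in WT dasatinib, 48.6 in WT Dasa, 22.3, 25.2 and 21.8 in T348I dasatinib, and 18.5 and 18.5 in T348I Dasa. GUCY1A2, a subunit of the nitric oxide receptor guanylate cyclase, stood at 6.87, 6.69 and 7.22 CPM in WT dasatinib, 17.1 in WT Dasa, 4.24, 4.01 and 3.48 in T348I dasatinib, and 8.16 and 6.54 in T348I Dasa. KLB groups were apart, whereas the T348I Dasa samples of GUCY1A2 overlapped the WT dasatinib samples; the ratios were 0.501 (dasatinib) and 0.3803 (Dasa) for KLB, and 0.565 (dasatinib) and 0.431 (Dasa) for GUCY1A2. The other 9 had ratios of 0.443 to 0.598 and 0.308 to 0.557. They were the phosphatase DUSP9, which acts on ERK, PIK3IP1, which inhibits PI3 kinase, the receptors TNFRSF9, IL17RB, PAQR8 and EPHA7, the adaptor DOK6, the kinase HUNK and BMF, a BH3-only protein that promotes apoptosis.

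Among the 10 members of other or unsure role, 2 fell under the naming rule. SMLR1, a small membrane protein (chr6:130827406-130837135, plus strand), with the HNF4 word printed above, stood at 11.9, 10.4 and 12.8 CPM in WT dasatinib, 19.0 in WT Dasa, 5.01, 5.502 and 5.13 in T348I dasatinib, and 3.86 and 3.27 in T348I Dasa. TTC39C, a protein with tetratricopeptide repeats, stood at 371, 379.7 and 374 CPM in WT dasatinib, 263 in WT Dasa, 203, 210.1 and 209 in T348I dasatinib, and 96.8 and 97.8 in T348I Dasa. Groups were apart for both, with ratios of 0.446 (dasatinib) and 0.187 (Dasa) for SMLR1, and 0.554 (dasatinib) and 0.370 (Dasa) for TTC39C. The rest, VWA5B2, TLCD2, FAM222A, BCAS1, WDR72, FBXO2, SMIM14 and PRRT1B, had ratios of 0.493 to 0.591 and 0.371 to 0.540.

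The sets themselves differed in level for many members. In the edgeR quasi-likelihood test of the Dasa against the dasatinib set, with genotype as a term and adjustment over 16162 genes, 17 members were higher and 33 lower in the Dasa set, or 19.1% and 37.1%, where 29.2% of all genes were higher and 28.4% lower. The rule used these same samples, so the test is not free of the choice of members. The largest rises were in DNM1 at 1.40 on the log2 scale (SE 0.0796, adjusted p = 1.54e-14), SLC5A9 at 1.36 on the log2 scale (SE 0.171, adjusted p = 8.52e-06), which was 0.69 without the WT Dasa sample, and GUCY1A2 at 1.21 on the log2 scale (SE 0.115, adjusted p = 6.51e-10). The largest falls were in TUBA1A at -1.56 on the log2 scale (SE 0.156, adjusted p = 3.77e-05), C1QL1 at -1.32 on the log2 scale (SE 0.121, adjusted p = 6.95e-05) and RFX6 at -1.26 on the log2 scale (SE 0.113, adjusted p = 1.60e-06). These values are differences between sets, and the model fits a common set difference for both YES forms. For the members the median level in the Dasa over the dasatinib set was 1.01 in WT and 0.730 in T348I samples. A value can therefore mix set differences that were unlike in the YES forms.

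The counts moved with 1 library. Without the WT Dasa sample, 11 members were higher and 50 lower, where 28.3% and 26.7% of all genes were. In level, the WT Dasa sample over the WT dasatinib mean had a median of 1.01 over the members and 0.886 over eligible genes. Of the 89 members 47 (52.8%) were higher, against 30.05% of eligible genes. For T348I Dasa over T348I dasatinib the medians were 0.730 and 0.903. There 16 members (18.0%) were higher, against 32.15% of eligible genes. The rule used these samples, so these counts are a description. Among the hepatocyte markers APOB stood at 5140 CPM in the WT Dasa sample and 2525 to 2610 in WT dasatinib, whereas FGB was at 1609 against 1752 to 1825 and TF at 647 against 635 to 690.0. YES1 was higher in T348I Dasa than in T348I dasatinib samples. The part of these levels in the set difference was not tested.

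Other genes of the members' pathways were counted in 9 lists. The lists were set with earlier results of these data known, and the T348I against WT test called 20.1% of 16162 genes lower and 19.5% higher, with a median log2 difference of -0.0043. Without the set term these came to 1048 lower and 1232 higher genes, and the counts of the lists were smaller too. Of 70 tested genes of amino acid breakdown, the urea cycle and one-carbon metabolism outside the members, 39 were lower and 8 higher. OAT, ornithine aminotransferase, stood at 258 ± 20.9 CPM in WT (SD, n = 4) and 145 ± 31.4 in T348I (SD, n = 5), a log2 difference of -0.73 (SE 0.0499, adjusted p = 8.00e-10). MCCC1, of leucine breakdown, fell by 0.58 on that scale (SE 0.0607, adjusted p = 7.56e-09). The other two of the 4 with the smallest p outside the members were higher, KYNU at 0.75 (SE 0.0513, adjusted p = 2.46e-12) and GOT1 at 0.41 (SE 0.0441, adjusted p = 1.27e-08).

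Among 60 genes of fatty acid oxidation, ketone bodies and peroxisomes, none of them a member, 37 were lower and 5 higher. ABCD3, a peroxisomal transporter, stood at 396 ± 42.9 CPM in WT (SD, n = 4) and 283 ± 45.4 in T348I (SD, n = 5), a log2 difference of -0.38 (SE 0.0349, adjusted p = 5.01e-10). The other 3 of the 4 with the smallest p were higher: ACSL5, ACOX2 and ACSL3, the last at 0.69 (SE 0.0362, adjusted p = 2.14e-15). In 48 genes of clotting, complement and plasma carriers outside the members, 18 were lower and 10 higher, so the share of lower genes was 37.5% where all genes had 20.1%. Without the WT Dasa sample 12 of 45 were lower and 15 higher, and the median log2 difference of the list, members included, turned from -0.20 to 0.04; the dasatinib set alone gave 11 of 43 lower and 15 higher. The 4 genes outside the members with the smallest p were all higher, among them LRG1 by 0.87 (SE 0.0539, adjusted p = 1.17e-13) on the log2 scale and AGT, angiotensinogen, by 0.56 (SE 0.0403, adjusted p = 3.10e-12).

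Of 51 liver transcription factors and nuclear receptors outside the members, 23 were lower and 10 higher. HHEX, a homeobox factor of liver development, differed by -0.47 (SE 0.0412, adjusted p = 2.33e-10) on the log2 scale, and DBP, a clock-controlled factor, by -0.61 (SE 0.0611, adjusted p = 3.32e-09). CEBPA also fell and CEBPB rose. Of 25 brush border scaffolds and partners outside the members, 11 were lower and 4 higher (7 and 3 of 24 without the WT Dasa sample). NHERF1, a PDZ scaffold like PDZK1, stood at 259 ± 21.7 CPM in WT (SD, n = 4) and 182 ± 38.1 in T348I (SD, n = 5), a difference of -0.41 (SE 0.0524, adjusted p = 8.40e-06). VIL1, villin, differed by -0.49 (SE 0.0702, adjusted p = 1.70e-06). RDX, radixin, was higher, by 0.22 (SE 0.0365, adjusted p = 1.79e-05). ESPN, espin, was low at 2.41 ± 0.531 CPM in WT (SD, n = 4) and 0.846 ± 0.391 in T348I (SD, n = 5), a difference of -1.47 (SE 0.263, adjusted p = 4.46e-05).

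Solute carriers outside the members counted 240 tested genes, 85 lower and 42 higher. SLC40A1, the iron exporter ferroportin, stood at 197 ± 4.64 CPM in WT (SD, n = 4) and 123 ± 5.90 in T348I (SD, n = 5), a difference of -0.62 (SE 0.0383, adjusted p = 1.17e-13), and SLC17A5, the lysosomal sialic acid exporter, differed by -0.52 (SE 0.0405, adjusted p = 1.70e-11). The other two with the smallest p, SLC26A4 and SLC16A6, were higher. Lipid droplet, lipase and lipid transfer genes outside the members showed 17 lower and 6 higher of 50. STARD10, a phospholipid transfer protein, differed by -0.64 (SE 0.0603, adjusted p = 1.27e-07), and LPIN2, a phosphatidate phosphatase, by -0.35 (SE 0.0419, adjusted p = 1.18e-07). LIPH, a lipase, was higher, at 0.51 (SE 0.0493, adjusted p = 1.66e-09). Growth factor and hormone receptors showed 17 lower and 11 higher of 50, with FZD4, a WNT receptor, at -0.53 (SE 0.0418, adjusted p = 2.66e-11) and EGFR at -0.36 (SE 0.0379, adjusted p = 8.27e-09). GPRC5C also fell, at -0.38 (SE 0.0357, adjusted p = 9.16e-10), and IGF1R, the receptor of insulin-like growth factor, rose by 0.60 (SE 0.0571, adjusted p = 1.22e-09). Without the WT Dasa sample 13 of 47 receptors were lower and 14 higher. Phase 2 conjugation, which has no member, showed 13 lower and 7 higher of 30. NNMT and GSTO1, the latter at 0.37 (SE 0.0429, adjusted p = 6.94e-08), were higher. GSTP1, a glutathione transferase, differed by -0.36 (SE 0.043, adjusted p = 8.11e-08) and GSTA4 by -0.36 (SE 0.0584, adjusted p = 1.29e-05). The median log2 difference of each of the 9 lists, members included, lay between -0.23 and -0.08, and between -0.16 and 0.04 without the WT Dasa sample, where 16.2% of all genes were lower and 17.7% higher. The members' median was -0.97, which the choice of members fixes. DBP, FZD4, EGFR, VIL1 and GOT1 did not pass without the set term (adjusted p = 0.0546, 0.188, 0.0727, 0.0803 and 0.142).

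**Figure D4:**
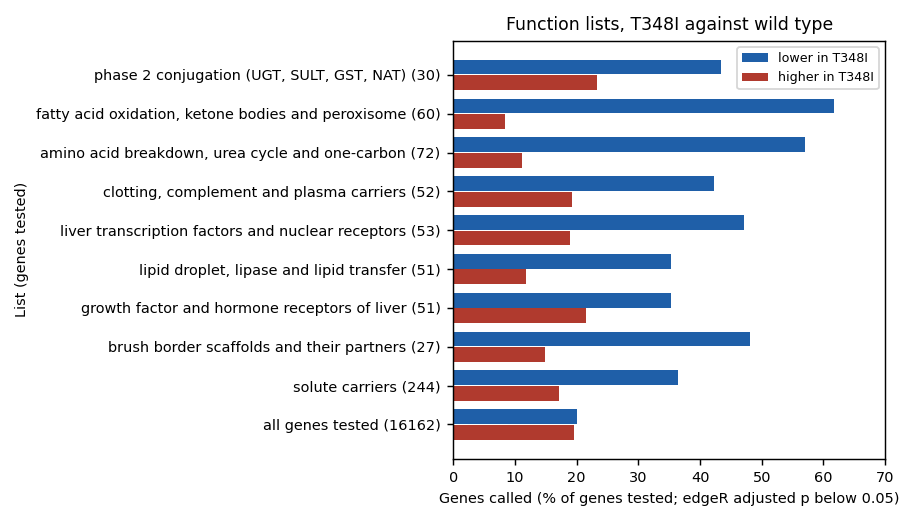
Share of tested genes called lower (blue) and higher (red) in T348I samples (horizontal, %, edgeR adjusted p below 0.05) in each of the 9 lists, members included, and over all genes tested. The share of lower genes is above that of all genes, 20.1%, in every list. The choice of members fixes part of these bars, and outside the members the share of lower genes is 34% to 61.7%.

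Position and length were read beside the eligible genes. The members lay on 22 of the chromosomes, with 5 members on chromosome 13 (5.62%, against 1.75% of eligible genes), 6 on chromosome 4 (6.74%, against 3.71%) and 1 on chromosome 2 (1.12%, against 6.63%). Only F7 with F10, and KLB with SMIM14 (94794 bases between them on chromosome 4), lay within 100000 bases of each other. The median exon length was 5395 bases (5311 in eligible genes), and the median gene length was 43324 bases (33605). The members had a median WT level of 21.5 CPM and took 0.498% to 0.551% of gene reads in WT samples and 0.184% to 0.303% in T348I samples.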

How the data were processed

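The authors deposited counts of reads per gene for 9 samples, aligned to GRCh38. Tools named are STAR 2.5.1b, Trimmomatic 0.35 and CASAVA 1.8.2, per the submitters' processing notes. Which annotation release was used is not given in the sources used here. The column for the sense strand of this stranded kit was used; the opposite strand held 5.48% to 5.91% of it. Reads naming no gene (22.2% to 29.8%) were left out. Reads shared by near-identical genes may be lost or split.

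CPM was computed over gene reads, and the rule for members was applied to it. Of 58219 gene identifiers 57437 had a symbol; coordinates follow GENCODE 29 and are given for genes of the same version. Tests on these counts used edgeR 4.0.16 in R 4.3.3 (filterByExpr, TMM, quasi-likelihood test with set and genotype, two-sided, Benjamini-Hochberg over 16162 genes, threshold 0.05); DESeq2 1.42.0, other filters and scalings, single sets, a replicate block and leaving out each sample were alternatives. The script was tested on simulated data. Members are given no test of T348I against WT, since they were selected on it. Their calls in the fit are counted only where a count is said to include members or covers all genes.

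The members and lists were chosen with earlier results of these data known. Named are the 12 members with the lowest ratio, the 10 with the highest WT CPM, 4 on each side of the threshold, 3 with the largest set difference each way, members in a list, and up to 4 other genes per list by smallest p. The remaining members are named by function. Some genes that the rule picks are not reported here. Alternatives of the read-across were added after seeing the data. No duplicate libraries were found. Protein sequences were not used here. Some genes that the naming rule takes are left out of the text.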

Additional observations from a re-analysis of the deposited data

Results flagged for a closer look

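Among 34 members with a value given for every sample, the highest or lowest sample of a group was held against the rest of that group in 68 groups, 34 of 4 WT and 34 of 5 T348I samples. Of these members, SLC5A9, DNM1, GUCY1A2, TUBA1A, C1QL1 and RFX6 were named for their large difference between the sets, and all but RFX6 were flagged. Naming by set difference favours a WT Dasa sample that stands apart. The chance rate of about 1 in 20 groups is therefore no yardstick here, and the flags are a description. In 14 groups 1 sample stood apart by Dixon's criterion. It was the WT Dasa sample each time, the 1 WT sample of its set. It stood above the other WT samples for 6 members: AMN at 37.8 CPM, SLC5A9 at 25.3, CXCL12 at 107, LIPC at 83.5, GUCY1A2 at 17.1 and DNM1 at 41.1. It stood below them for 8: RAB11FIP4 at 71.3, NEBL at 118, C1QL1 at 121, TUBA1A at 23.9, F10 at 32.4, TTC39C at 263, ELOVL2 at 465 and NID1 at 280. The criterion looks for 1 sample and is not made to mark 2 that lie together, such as the T348I Dasa samples.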

How the results depend on the processing

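Over 24 main results, all counts or shares, and 401 alternatives, 370 stayed within 1.5 times the value. Without the WT Dasa sample, and in the dasatinib set alone, the higher genes outside the members were at least as many as the lower ones in the clotting and receptor lists, and the clotting median changed sign. The rule gave 58 members at 10 CPM, 134 at 2 CPM and 25 at a ratio of 0.5. It gave 82 to 99 with 1 sample other than WT Dasa left out. Without WT Dasa only the dasatinib ratio could be asked, and 102 genes met it. The set contrast of members gave 11 to 23 higher and 28 to 50 lower with 1 sample left out, the extremes of 11 and 50 without the WT Dasa sample; 10 higher and 50 lower in T348I samples alone; and 2 and 7 with no genotype term. With no set term, all genes gave 1048 lower and 1232 higher. The lists, members included, then gave 7 lower and 4 higher for phase 2 conjugation, 20 and 3 for fatty acid oxidation, and 21 and 1 for amino acid breakdown. They gave 13 and 5 for clotting, 11 and 4 for transcription factors, 9 and 6 for receptors, and 43 and 17 for solute carriers. Lower genes were 6 in the lipid and 8 in the brush border list. Outside the members, lower genes were 19 for amino acid breakdown, 9 for clotting, 9 for transcription factors and 8 for receptors. For solute carriers, lipid genes and the brush border they were 39, 5 and 6. DESeq2 gave 4 higher for phase 2, 3 higher for fatty acid oxidation and 11 lower for lipid genes, members included. The dasatinib set alone gave 4 higher for phase 2. The cause of these shifts was not tested. In the dasatinib set, deviations of same-numbered WT and T348I samples from their group means correlated at -0.0059, -0.062 and 0.0132. Such values cannot exclude a pairing by replicate number, and the Dasa set was not checked. With the replicate block the set contrast gave 13 members higher and 33 lower. Of 731 alternatives for 43 single genes, 11 lost the call and 0 gained one: 4 for HNF4A, and 1 each, without the other term of the model, for GOT1, IGFBP1, DBP, FZD4, EGFR, VIL1 and SLC5A9. The read-across from the dasatinib to the Dasa set was 93.9% to 100% with 1 sample other than WT Dasa left out. The WT Dasa sample could not be left out, since every Dasa ratio rests on it. At 5 CPM, a gene rested on 52 to 79 reads a sample, which limits ratios near 0.6.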

Other observations

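Some genes of the same lists rose in T348I samples while the members were lower. ACSL5, an acyl-CoA synthetase, stood at 5.34 ± 0.485 CPM in WT (SD, n = 4) and 31.0 ± 2.93 in T348I (SD, n = 5), a log2 difference of 2.57 (SE 0.0832, adjusted p = 1.82e-20) in the edgeR test, and ACOX2, the peroxisomal oxidase of branched chains and bile acid precursors, at 2.81 ± 0.462 CPM in WT (SD, n = 4) and 8.31 ± 0.909 in T348I (SD, n = 5), a difference of 1.59 (SE 0.135, adjusted p = 1.16e-10). NNMT, which methylates nicotinamide, stood at 6.86 ± 1.76 CPM in WT (SD, n = 4) and 21.2 ± 1.70 in T348I (SD, n = 5), a difference of 1.62 (SE 0.0918, adjusted p = 1.46e-14). CEBPB, a relative of CEBPA that responds to inflammation, stood at 114 ± 8.01 CPM in WT (SD, n = 4) and 173 ± 4.42 in T348I (SD, n = 5), a difference of 0.68 (SE 0.0397, adjusted p = 3.65e-14).

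Of the solute carriers, SLC16A6 stood at 0.557 ± 0.0381 CPM in WT (SD, n = 4) and 7.96 ± 3.65 in T348I (SD, n = 5), a difference of 3.70 (SE 0.198, adjusted p = 3.53e-15). The carriers SLC26A4 and SLC16A6 had the smallest p of their list, and SLC26A4, an anion exchanger, was near the detection floor in WT at 0.0722 ± 0.0598 CPM in WT (SD, n = 4) and 7.35 ± 2.55 in T348I (SD, n = 5). KYNU, of tryptophan breakdown, stood at 55.5 ± 1.98 CPM in WT (SD, n = 4) and 91.1 ± 7.04 in T348I (SD, n = 5), a difference of 0.75 (SE 0.0513, adjusted p = 2.46e-12). KYNU and NNMT are eligible genes, so the rule could have taken them had they been lower.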
